A study of Mus musculus with 5 samples.

Results

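Foxp3, Ikzf2, Ikzf4 and Lrrc32 are 4 genes by which regulatory T (Treg) cells are recognised. They were taken by name, 4 of the 28692 genes in the files, and their unique molecular identifiers (UMIs, each standing for 1 captured RNA molecule) were counted in every cell and summed over Treg, CD4 T, CD8 T and natural killer (NK) cells of each library. Foxp3 encodes the forkhead transcription factor that sets and keeps the Treg programme. Ikzf2 (Helios) and Ikzf4 (Eos) encode zinc finger factors of the Ikaros family, of which Eos is known as a partner of Foxp3 in gene repression. Lrrc32 encodes GARP, a surface protein that holds latent TGF-beta on activated Treg cells, where integrin αvβ8 can release the active cytokine. Treg cells carry the high-affinity IL-2 receptor, which shares its β and γ chains with the IL-15 receptor, and signalling through STAT5 maintains Foxp3. IL-15 is best known for sustaining CD8 T and NK cells.

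The cells were CD45+ leukocytes sorted from B16-F10 tumors, a melanoma line of C57BL/6 origin, implanted under the skin of mice (500000 cells) and taken at day 11. The 5 libraries, 1 per treatment, came from mice given PBS, anti-PD1 (an antibody to the PD-1 receptor), IL15 superagonist, the combination of IL15 superagonist and anti-PD1 (the treatment field of that sample reads IL15), or a protein fusion of anti-PD1 and IL15. The labels place treatment after the tumor was resected, and give no mouse strain, age, dose or number of mice per library. With 1 library per treatment, differences between treatments have no replicate check and no test. Intervals are exact 95% intervals that cover counting error only.

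The PBS library held 6015 barcodes, anti-PD1 7350, IL15 superagonist 6779, the combination 8577 and fusion 8747, with medians of 4279 to 7851 UMIs per cell, the deepest being fusion. Pairs of libraries shared 61 to 104 barcodes, between 0.915% and 1.37% of the smaller library. Between 192 and 385 cells per library carried both lymphocyte and myeloid or B-cell markers and were marked as doublets. They were left out of the T, NK and B-cell classes, but some with B-cell and myeloid markers stayed in the myeloid class. Of 206 marked under PBS and 385 under anti-PD1, 188 and 360 were in no class. T cells had at least 2 UMIs of the Cd3 genes. Treg-gated cells were T cells with no UMI of Cd8a or Cd8b1 and at least 1 of Foxp3, so their Foxp3 level is a description. CD4 T cells had a Cd4 UMI and none of Foxp3 or the Cd8 genes, and can include Treg cells in which Foxp3 was missed. CD8 T cells had at least 2 Cd8 UMIs and no Cd4, and NK cells no Cd3 UMI and at least 2 of 5 NK markers. Treg-gated cells carried UMIs of all 7 Treg check genes, which include the member Ikzf2. CD4 T and CD8 T cells of every library also carried all 7, so presence alone does not set the gate apart. The summed level was 5597 to 7719 CPM (counts scaled to a fixed total of UMIs of the class) in Treg-gated cells. It was 2293 to 3785 CPM in CD4 T cells and 698 to 1244 CPM in CD8 T cells. In Treg-gated cells the summed myeloid markers were at 24.6 to 104 CPM, B-cell markers at 0 to 18.9 CPM and gamma-delta T markers at 1.21 to 98.5 CPM. Markers of type 2 innate lymphoid cells summed to 1034 to 1813 CPM in Treg-gated cells and 1079 to 2406 CPM in CD4 T cells.

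The members lie on 4 chromosomes of mm10. Foxp3 (ENSMUSG00000039521) spans chrX:7573644-7595245 on the plus strand and overlaps Ppp1r3f, Flicr and Ccdc22, which the files also count. Ikzf2 (ENSMUSG00000025997) spans chr1:69531214-69687245 on the minus strand, Ikzf4 (ENSMUSG00000002578) chr10:128630843-128645991 on the minus strand, and Lrrc32 (ENSMUSG00000090958) chr7:98489283-98502181 on the plus strand. Promoters of 1 of the 4 members, Foxp3, were matched in the RefSeq promoter table (GRCm38.p6). They are shown because Foxp3 is the gate gene and STAT5 its known inducer through IL-2 family receptors. Both windows hold the 250 bases before an annotated start. Capitals mark TATAAA (or its reverse complement TTTATA) and the STAT-type motif TTCNNNGAA, which reads the same on both strands.
Foxp3 start 1, chrX:7579426-7579675, plus strand: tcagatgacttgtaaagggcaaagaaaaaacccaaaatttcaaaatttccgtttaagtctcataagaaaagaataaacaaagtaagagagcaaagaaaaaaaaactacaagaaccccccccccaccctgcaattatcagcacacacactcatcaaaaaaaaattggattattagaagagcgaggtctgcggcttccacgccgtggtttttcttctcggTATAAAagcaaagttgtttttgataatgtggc
Foxp3 start 2, chrX:7580233-7580482, plus strand: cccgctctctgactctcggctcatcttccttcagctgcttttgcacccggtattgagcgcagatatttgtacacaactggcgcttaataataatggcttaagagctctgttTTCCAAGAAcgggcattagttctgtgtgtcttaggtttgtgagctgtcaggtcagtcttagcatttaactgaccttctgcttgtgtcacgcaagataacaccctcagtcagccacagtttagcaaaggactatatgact
The first window holds 1 TATAAA, at position -32 from the start, and the second 1 STAT-type match, at position -139. Of 32851 promoter windows of this length, 12.4% hold a TATA-type match and 7.02% a STAT-type match. These counts of RNA do not bear on which start was used.

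Treg-gated cells were a smaller share of T cells in the 3 libraries that received IL15. They were 135 of 1636 T cells under PBS, 8.25% (6.96% to 9.69%, Clopper-Pearson). Anti-PD1 had 134 of 1833, 7.31% (6.16% to 8.60%). IL15 superagonist had 49 of 3346, 1.46% (1.09% to 1.93%). The combination had 129 of 4755, 2.71% (2.27% to 3.21%), and fusion 15 of 7365, 0.204% (0.114% to 0.336%). The PBS and anti-PD1 intervals overlap, and the other 3 are apart from them and from each other. T cells themselves numbered 1636 to 7365 per library, so the share moves with the number of CD8 T cells as well as with the Treg number. CD8 T cells were 55.3% to 65.3% of T cells in the first 4 libraries and 87.3% under fusion. When Cd8 UMIs were allowed in the gate, chosen after seeing the data, the shares were 11.8%, 9.88%, 2.36%, 4.29% and 0.516% in the same order.

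**Figure D1:**
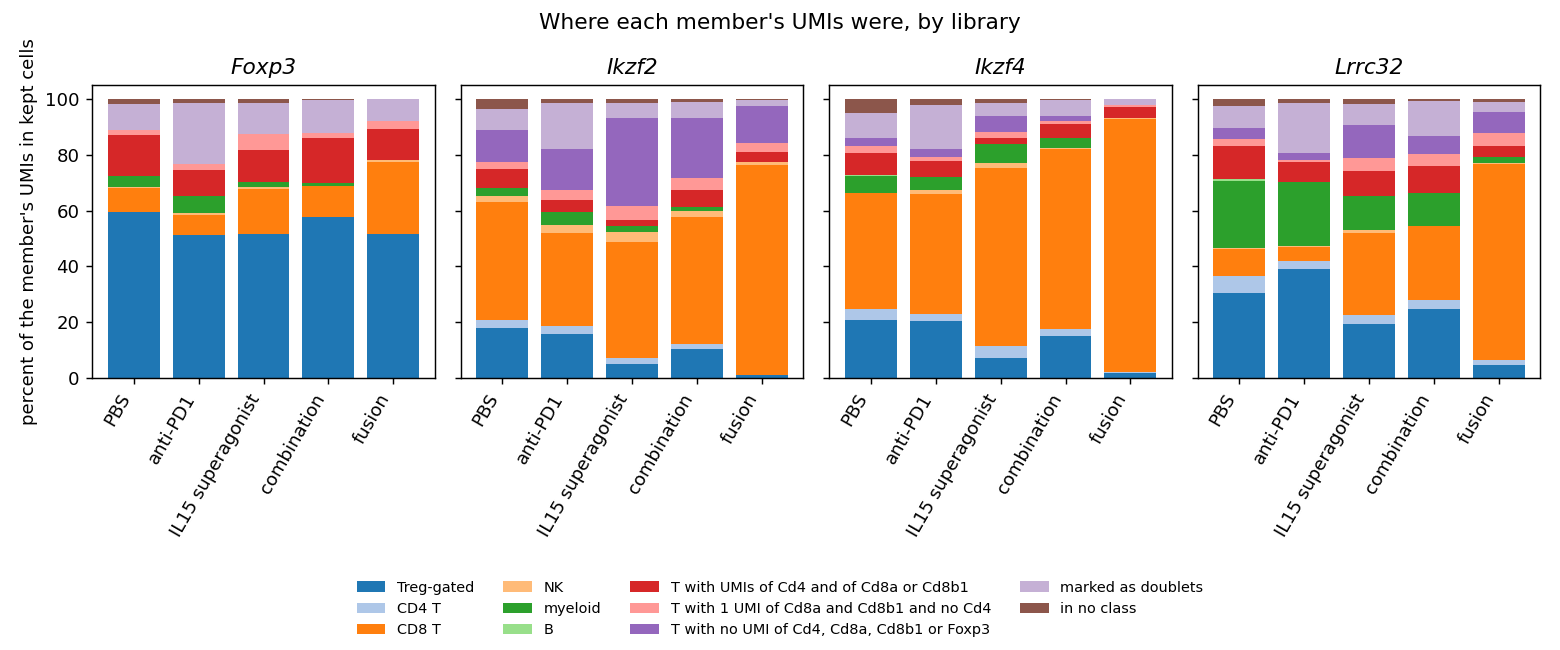
Stacked bars give the percent of each member's UMIs found in each cell class or place, per library (x axis). Treg-gated cells held 51.3% to 59.5% of Foxp3 UMIs. Under fusion, CD8 T cells were 74.3% of kept cells. They held 75.1% of Ikzf2, 90.7% of Ikzf4 and 70.3% of Lrrc32 UMIs there.

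Treg-gated cells, which are defined by Foxp3, held most Foxp3 UMIs in every library, so the 4 members are not ranked by this share. These cells held 303 of 509 Foxp3 UMIs under PBS, 351 of 684 under anti-PD1, 148 of 286 under IL15 superagonist, 412 of 716 under the combination and 52 of 101 under fusion. Since the gate asks for Foxp3, this share says how much of Foxp3 lay in T cells without Cd8 UMIs. A further 9.06% to 15.9% lay in T cells with UMIs of both Cd4 and a Cd8 gene, and 7.02% to 25.7% in CD8 T cells. Cells marked as doublets, without those in the myeloid class, held 21.9% of the Foxp3 UMIs of anti-PD1, and 7.92% to 11.9% in the other libraries. For Ikzf2, Treg-gated cells held 17.8% of UMIs under PBS and 0.976% under fusion, for Ikzf4 20.8% and 1.64%, and for Lrrc32 30.5% and 4.66%. Myeloid cells held 24.2% of Lrrc32 UMIs under PBS and 2.12% under fusion.

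Within the gate the Foxp3 level was 416.5 CPM under PBS, 423 under anti-PD1, 536 under IL15 superagonist, 556 under the combination and 640.2 under fusion. The median cell had 2 Foxp3 UMIs under PBS, anti-PD1, IL15 superagonist and the combination, and 3 under fusion, with a highest count of 12. A single Foxp3 UMI was all that 60 of 135 PBS cells and 37 of 129 combination cells had. The Foxp3 level was therefore also read in a gate that uses no member: T cells with a Cd4 UMI, no Cd8 UMI and at least 1 UMI of both Il2ra and Ctla4, of which there were 86, 84, 36, 67 and 7 from PBS to fusion. There Foxp3 stood at 307.5 CPM (262 to 359) under PBS, 367 (319 to 421) under anti-PD1, 392.5 (311 to 489) under IL15 superagonist and 380 (322 to 446) under the combination, and at 668 (432.5 to 986.5) in the 7 fusion cells. The intervals of PBS, anti-PD1, IL15 superagonist and the combination overlap. By cells, 73.3%, 82.1%, 61.1%, 59.7% and 71.4% had a Foxp3 UMI, in the order PBS to fusion.

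**Figure D2:**
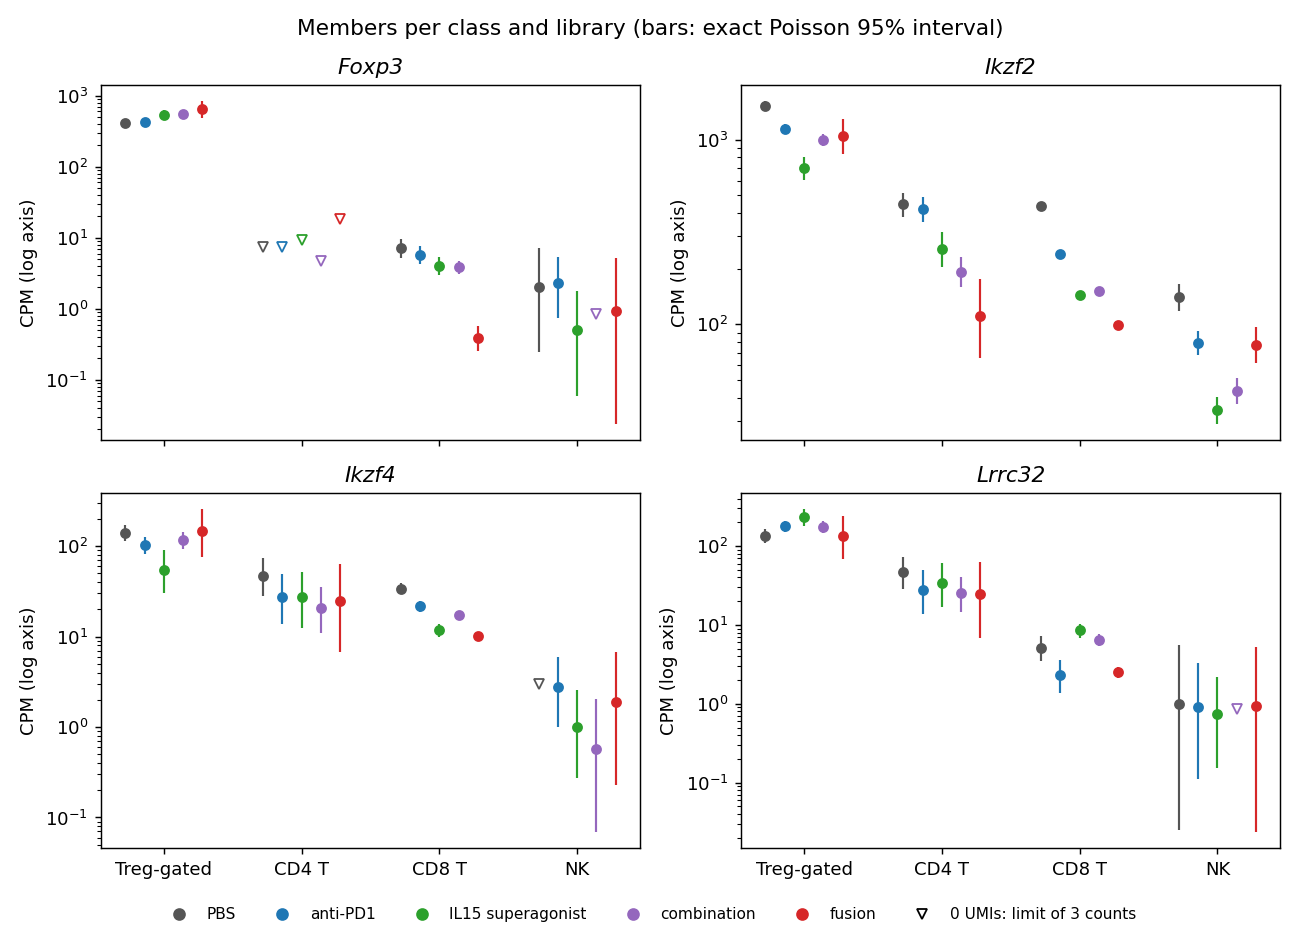
Each panel gives 1 member's level in CPM (log axis) by cell class (x axis) and library (colour), as points with exact Poisson 95% intervals, and triangles where no UMI was seen. Ikzf2 was highest in Treg-gated cells (699 to 1523 CPM) and reached 435 CPM in the CD8 T cells of PBS, whereas Lrrc32 stayed at or under 8.54 CPM in CD8 T cells and Ikzf4 at or under 2.74 CPM in NK cells.

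Foxp3 was rare in CD8 T, myeloid and NK cells. In CD8 T cells it stood at 7.07 CPM under PBS, 5.79 under anti-PD1, 4.05 under IL15 superagonist, 3.84 under the combination and 0.394 under fusion. By cells, 2.65%, 1.87%, 0.757%, 1.19% and 0.280% of CD8 T cells had a Foxp3 UMI, at median depths of 4604 to 9067 UMIs. The same share in myeloid cells, which should lack the gene, was 0.580%, 1.0%, 0.235% and 0.366%, and 0 under fusion, at median depths of 4922 to 7067 UMIs. Thinned to 2000 UMIs per cell, the CD8 T shares were 1.36%, 0.934%, 0.324%, 0.548% and 0.0311%, and the myeloid shares 0 to 0.284%. Under fusion the count of 0 in 661 myeloid cells allows a share of up to 0.454%, above the CD8 T share, so a difference between the classes was not detectable there. NK cells had 0 to 5 Foxp3 UMIs per library.

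Ikzf2 had the most UMIs of the 4 members in every library and differed between libraries in all 4 classes. Levels of different genes are not compared here, since the 5' counts are not scaled to length. In Treg-gated cells Ikzf2 stood at 1523 CPM (1435 to 1615) under PBS, 1142 (1070 to 1217) under anti-PD1, 699 (604 to 805) under IL15 superagonist, 997 (927 to 1072) under the combination and 1046 (836 to 1294) under fusion. PBS was above every other library, and IL15 superagonist below every other. Relative to PBS the level was 1.33-fold lower under anti-PD1 (1.22 to 1.46), 2.18-fold lower under IL15 superagonist (1.87 to 2.55) and 1.53-fold lower under the combination (1.39 to 1.68). Fusion had 15 such cells and enters no ratio. In the gate that uses no member the values were 1353, 1137, 606, 745 and 615 CPM. The interval of IL15 superagonist there (503 to 724) overlapped those of the combination (662 to 835) and fusion (390 to 922.5). With cells brought to 2000 UMIs each, 89.9%, 91.0%, 71.4%, 80.6% and 86.7% of Treg-gated cells had an Ikzf2 UMI, against 93.3% to 97.8% at full depth.

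In CD8 T cells Ikzf2 was lower in each treated library than under PBS. It stood at 435 CPM (418.5 to 452) under PBS, 241 (231 to 252) under anti-PD1, 145 (138 to 152) under IL15 superagonist, 152 (147 to 158) under the combination and 99.0 (96.6 to 101) under fusion. Relative to PBS, anti-PD1 was 1.80-fold lower (1.70 to 1.91), IL15 superagonist 3.0-fold (2.82 to 3.19), the combination 2.86-fold (2.71 to 3.01) and fusion 4.39-fold (4.20 to 4.6). At full depth the IL15 superagonist and combination levels overlap, and the other 3 stand apart. At 2000 UMIs per cell, 45.6% of PBS CD8 T cells had an Ikzf2 UMI, 28.4% under anti-PD1, 15.8% under IL15 superagonist, 19.6% under the combination and 16.5% under fusion, so that the lowest share was not that of fusion. The thinned fusion level was 104 CPM against 116 under IL15 superagonist, a ratio of 0.899 (0.806 to 1.01) whose interval includes 1.

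CD4 T cells and NK cells also had less Ikzf2 in the libraries that received IL15 than under PBS. In NK cells Ikzf2 was lower under anti-PD1 as well, 1.78-fold below PBS (1.41 to 2.23). CD4 T cells stood at 446, 419, 256.5, 193 and 111 CPM in the order PBS to fusion. The anti-PD1 level overlapped that of PBS (1.06-fold lower, 0.858 to 1.32), while fusion was 4.00-fold lower (2.46 to 6.91) on 18 UMIs. NK cells stood at 141 CPM (118.5 to 166) under PBS, 79.3 (68.0 to 92.0) under anti-PD1, 34.2 (28.7 to 40.4) under IL15 superagonist, 43.6 (36.9 to 51.0) under the combination and 77.5 (61.8 to 96.1) under fusion. The fusion level overlapped that of anti-PD1, unlike in CD8 T cells, where fusion was lowest at full depth.

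Many genes moved at least 1.5-fold between these single libraries. How many moved as far as Ikzf2 was not counted. Genes with at least 20 UMIs in both libraries together were compared. In CD8 T cells the share at least 1.5-fold lower than under PBS was 11.6% (anti-PD1), 19.4% (IL15 superagonist), 19.1% (combination) and 28.5% (fusion). Ikzf2 and Ikzf4 were past that fold in CD8 T cells of all 4 treated libraries. In Treg-gated cells the share was 16.9%, 20.3% and 15.1% for anti-PD1, IL15 superagonist and the combination, and Ikzf2 was past the fold in the last 2. In CD4 T cells it was 15.8%, 19.6%, 17.1% and 27.1%, with Ikzf2 past the fold under IL15 superagonist, the combination and fusion (18 UMIs). In NK cells it was 14.3%, 18.8%, 17.7% and 26.4%, and Ikzf2 was past the fold in all 4. Between fusion and the combination, 18% of genes were at least 1.5-fold lower in CD8 T cells and 10.6% at least 1.5-fold higher in NK cells, where Ikzf2 under fusion was at 0.650 and 1.78 of its combination level.

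**Figure D3:**
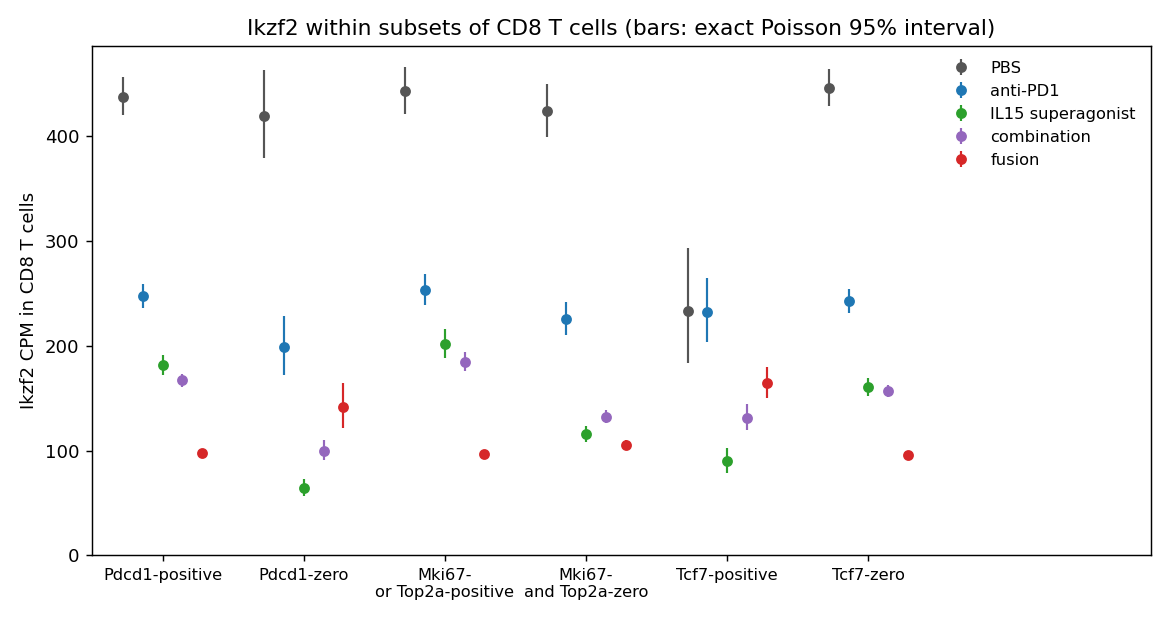
Points give Ikzf2 CPM (y axis) in CD8 T cells split by UMIs of Pdcd1, of Mki67 or Top2a, and of Tcf7 (x axis), by library (colour), with exact Poisson 95% intervals. At full depth, as drawn, PBS lay above the other libraries in 5 of the 6 subsets, and in Tcf7-positive cells PBS (233 CPM) and anti-PD1 (233 CPM) overlapped.

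CD8 T cells of the libraries also differed in the share with a UMI of activation and cycling genes. Cells with a UMI of Pdcd1, which encodes PD-1, were 77.3%, 80.2%, 56.5%, 66.0% and 96.3% of CD8 T cells in the order PBS to fusion at full depth, and 51.3%, 59.9%, 44.6%, 50.2% and 77.6% with cells thinned to 2000 UMIs. Cells with a UMI of the cycling genes Mki67 or Top2a were 41.2%, 39.7%, 19.2%, 22.5% and 62.4% at full depth and 26.1%, 24%, 10.5%, 11.4% and 40.9% thinned. In both, fusion had the highest share and IL15 superagonist the lowest at either depth. Within Pdcd1-positive cells Ikzf2 stood at 438, 247, 181, 167 and 98.2 CPM at full depth, and at 435, 227, 158, 156 and 105 CPM when thinned cells were split. Within cells with neither cycling gene it stood at 424, 226, 116, 132.5 and 106 CPM, and thinned at 408, 210.1, 105, 134 and 103 CPM. PBS was highest and anti-PD1 next in all 4 of these series. In cells without a Pdcd1 UMI the order of the last 3 libraries turned with depth: IL15 superagonist, the combination and fusion stood at 64.5, 100.1 and 142 CPM at full depth and at 82.0, 114.5 and 99.9 CPM thinned. In Tcf7-positive cells, Tcf7 being a factor of naive and stem-like T cells, the levels were 233, 233, 89.9, 132 and 164 CPM at full depth and 122, 181, 63.2, 101 and 204 CPM thinned. The thinned PBS value rests on 9 UMIs, and fusion was highest there, so no order is read from Tcf7-positive cells. These subsets were chosen after the data were seen, and their part in the difference between libraries was not tested.

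T cells without a UMI of Cd4, Cd8a, Cd8b1 or Foxp3 also carried Ikzf2. They held 11.4% of its UMIs under PBS and 31.2% under IL15 superagonist, where they were 34.3% of T cells. Their level was 702, 638, 309, 368 and 407 CPM in the order PBS to fusion, above that of CD8 T cells in every library. In these cells 12.2% to 18.8% had a UMI of Trdc, the constant region of the δ T-cell receptor, and 9.89% to 53.8% had at least 2 of the 5 NK markers. Ikzf4 was at 0.357 to 12.8 CPM and Lrrc32 at 6.42 to 12.8 CPM there.

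Ikzf4 was low in counts. In Treg-gated cells it stood at 140 CPM (114 to 170.2) on 102 UMIs under PBS, 102.5 (81.8 to 127) on 85 under anti-PD1, 54.4 (30.4 to 89.7) on 15 under IL15 superagonist, 117 (94.0 to 145) on 87 under the combination and 148 (76.3 to 258) on 12 under fusion. IL15 superagonist was 2.58-fold below PBS (1.49 to 4.78), and the combination's interval against PBS includes no difference (1.19-fold lower, 0.888 to 1.61). In the gate without members no interval against PBS excluded a ratio of 1: IL15 superagonist was 1.85-fold lower (0.981 to 3.78) on 12 UMIs, and the combination 1.01-fold lower (0.670 to 1.54). In CD8 T cells Ikzf4 was 33.7 CPM under PBS, 21.6 under anti-PD1, 11.7 under IL15 superagonist, 17.5 under the combination and 10.1 under fusion, or 1.56-, 2.88-, 1.93- and 3.34-fold below PBS. CD4 T cells had 20.5 to 47.0 CPM on 4 to 19 UMIs, and the combination was 2.29-fold below PBS (1.07 to 5.04). NK cells had 0 to 6 Ikzf4 UMIs per library.

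Lrrc32 stood at low levels outside Treg-gated cells, and in them no treated library lay below PBS. In Treg-gated cells Lrrc32 stood at 133 CPM (108 to 163) under PBS, 177 (149.7 to 208) under anti-PD1, 232 (179 to 296) under IL15 superagonist, 174 (145 to 207) under the combination and 135 (67.6 to 242) under fusion. IL15 superagonist was 1.74-fold above PBS (1.25 to 2.41), in a comparison where 17.9% of genes were at least 1.5-fold higher, and the anti-PD1 ratio was 1.33 (1.02 to 1.74). The gate without members gave 144, 162, 263, 152 and 134 CPM. In Treg-gated cells of IL15 superagonist, Lrrc32 was thus higher than under PBS while Ikzf2 was lower, in both gates.

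In CD8 T cells Lrrc32 stood at 5.10 CPM on 31 UMIs under PBS, 2.29 on 19 under anti-PD1, 8.54 on 97 under IL15 superagonist, 6.49 on 137 under the combination and 2.51 on 166 under fusion. Myeloid cells had 1.39% to 2.02% of cells with an Lrrc32 UMI in the first 4 libraries and 0.756% under fusion, against 2.21%, 1.31%, 4.16%, 3.45% and 2.16% of CD8 T cells. The IL15 superagonist level was 1.67-fold that of PBS (1.11 to 2.60), where 14.7% of genes were at least 1.5-fold higher. Leaving out CD8 T cells with a Foxp3 UMI, the levels were 2.37, 1.11, 7.68, 5.91 and 2.51 CPM. CD4 T cells had 24.7 to 47.0 CPM, and NK cells 0 to 3 UMIs per library.

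CD8 T cells with a Foxp3 UMI were 24 under PBS, 20 under anti-PD1, 14 under IL15 superagonist, 37 under the combination and 18 under fusion. Ikzf2 stood in them at 985, 571, 182, 379 and 230 CPM, against 419, 233, 144, 149 and 98.6 CPM in the other CD8 T cells. Lrrc32 stood at 96.3, 47.6, 69.2, 49.1 and 4.90 CPM. Ctla4, which encodes an inhibitory receptor of Treg and activated T cells, was at 957, 776, 616, 670 and 299 CPM, against 157 to 344 CPM. Cd8a was at 323, 590, 604, 702 and 529.5 CPM in the order PBS to fusion. In the cells without Foxp3 it was at 771, 823, 726, 718 and 634 CPM. Whether the cells with a Foxp3 UMI are CD8 T cells with Foxp3 or droplets that hold RNA of 2 cells was not tested.

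**Figure D4:**
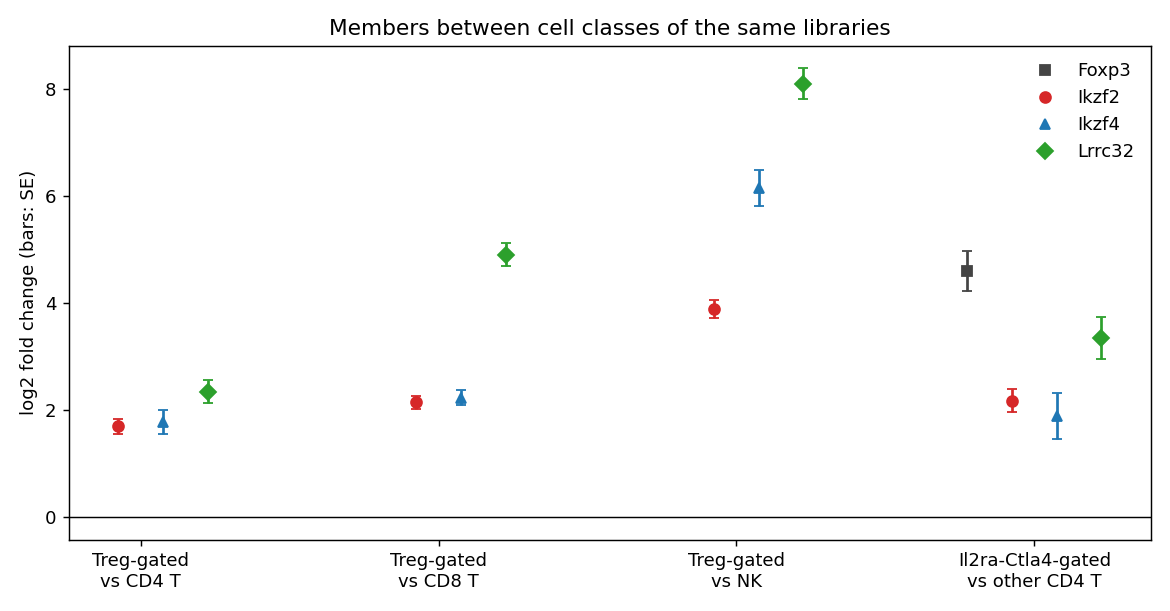
Points give log2 fold changes with their SE (y axis) between cell classes of the same libraries (x axis), for the members the gate did not use. Lrrc32 had the largest value in the 3 comparisons of Treg-gated cells (2.35, 4.90 and 8.10), and Foxp3 (4.6) in the gate without members.

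Cell classes can be compared within libraries, so these comparisons were tested, in the 4 libraries with at least 20 cells in each class (fusion had too few Treg-gated cells). EdgeR's quasi-likelihood test with the library as a block and Benjamini-Hochberg adjustment was used throughout. Against CD4 T cells, 443 of 5594 genes (7.92%) were higher in Treg-gated cells and 497 (8.88%) lower, with 164 and 249 by DESeq2. Ikzf2 was higher by 1.70 on the log2 scale (SE 0.138, adjusted p = 3.16e-06), Ikzf4 by 1.78 (SE 0.220, adjusted p = 7.78e-05) and Lrrc32 by 2.35 (SE 0.213, adjusted p = 6.12e-06). Against CD8 T cells, 12.9% of 9656 genes were higher and 9.34% lower. The log2 differences there were 2.15 for Ikzf2 (SE 0.122, adjusted p = 2.91e-08), 2.23 for Ikzf4 (SE 0.144) and 4.90 for Lrrc32 (SE 0.213). Against NK cells, where 18.4% of 7013 genes were higher, they were 3.89, 6.15 and 8.10. In each of these comparisons the 3 members were higher in 4 of 4 libraries.

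The gate on Il2ra and Ctla4 allowed Foxp3 itself to be tested. Against T cells with Cd4 and neither Il2ra nor Ctla4, 10.6% of 2831 genes were higher and 14.6% lower. Foxp3 was higher by 4.6 on the log2 scale (SE 0.369, adjusted p = 6.42e-06), Ikzf2 by 2.18 (SE 0.211), Ikzf4 by 1.89 (SE 0.430, adjusted p = 0.00712) and Lrrc32 by 3.35 (SE 0.399). These 4 calls held in every alternative that gave a value.

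Genes of the Treg surface and suppressor programme were higher in Treg-gated cells than in CD4 T cells. Of 27 genes of the Treg surface and suppressor list, 24 were tested against CD4 T cells and 16 were higher, with a median log2 difference of 0.727 against -0.0064 over all genes. They include Klrg1 (2.73), an inhibitory receptor of terminally differentiated lymphocytes, Il2ra (1.63), the IL-2 receptor α chain, Entpd1 (1.58), the ectoenzyme CD39, and Itgae (1.53), the integrin chain CD103. Il12rb2 (-1.49) and Nrp1 (-1.26), which encodes neuropilin-1, were lower in the Treg-gated cells. Against CD8 T cells 21 of 25 tested genes of the list were higher and 2 lower.

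Of the genes for GARP and TGF-beta activation, 11 of 16 were tested against CD4 T cells, 3 were higher and 3 lower. The higher ones were Lrrc32 and both chains of the integrin that acts on GARP-bound TGF-beta, Itgb8 (1.98, SE 0.230, adjusted p = 4.27e-05) and Itgav (1.14, SE 0.122). Furin (-1.69), a protease that cleaves the TGF-beta precursor, and Tgfbr2 (-1.23), a receptor chain, were lower. In the Ikaros family, Ikzf1 fell by 0.618 on the log2 scale (adjusted p = 0.0275) while Ikzf2 and Ikzf4 were higher.

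The conventional CD4 T list had 7 of 10 tested genes lower and 1 higher. Cd40lg, the helper ligand CD40L, stood at -4.13 and Tcf7 at -3.35. Of 26 tested Foxp3 partners and inducers, 3 were higher and 9 lower, led by Bach2 (-2.58), a repressor kept in less differentiated T cells. Of 13 tested genes of IL-2 and IL-15 receptors and STAT5 targets, 2 were higher, among them Il2ra, and 4 lower, led by the survival gene Bcl2 (-2.55).

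Treg-gated cells seldom had UMIs of all of Ikzf2, Ikzf4 and Lrrc32. All 3 were seen in 25 of 135 cells under PBS, 36 of 134 under anti-PD1, 7 of 49 under IL15 superagonist, 30 of 129 under the combination and 3 of 15 under fusion. Cells with neither Ikzf4 nor Lrrc32 numbered 47, 39, 17, 42 and 7, and cells with no Ikzf2 UMI 5, 3, 3, 7 and 1. Too few cells lacked Ikzf2 for a comparison of Treg-gated cells by that gene. Cells were therefore split by Lrrc32 and Ikzf4 after thinning to 2000 UMIs, a comparison added after seeing the data and made in the 3 libraries PBS, anti-PD1 and combination.

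Among Treg-gated cells, 6 genes were called higher in Lrrc32-positive than in Lrrc32-zero ones, but these calls depended on the setting. They were Mt1 (log2 difference 1.34), Ccr2 (0.805), Tnfrsf4 (OX40, 0.523), Tnfrsf9 (4-1BB, 0.514), Ctla4 (0.512) and Ifi27l2a (0.429). Over all 2033 genes, 6 were higher (0.295%) and 29 lower (1.43%). Among those lower were H2-Aa (-2.54), H2-Ab1 (-2.36) and Tyrobp (-3.11), which are genes of antigen-presenting and myeloid cells, and their part in the other differences was not tested. The calls did not last: without PBS there were 0, without anti-PD1 2, without the combination 20, with DESeq2 1 and without thinning 5. Ikzf2 differed by 0.292 (SE 0.138, adjusted p = 0.494) and Ikzf4 by -0.0612 (SE 0.370, adjusted p = 0.981) between these cells. The split by Ikzf4 gave 0 of 2104 genes (0%) with edgeR's test and 0 with DESeq2, with 118 at an unadjusted p under 0.05.

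CD8 T cells with and without Ikzf2 could be compared in all 5 libraries, with 292 to 1064 positive cells each after thinning, also added after seeing the data. Of 7888 genes, 84 were higher in Ikzf2-positive cells (1.06%) and 79 lower (1%). The higher genes were led by Klra7 (1.75, adjusted p = 1.43e-06), an inhibitory receptor of the Ly49 family, followed by Tmem158 (1.56) and Kit (1.31), the stem cell factor receptor. Of the Treg surface list, 7 of 20 tested genes were higher, among them Cd83 (1.12), Penk (0.97), Areg (0.75) and Ccr8 (0.75). The 1 lower gene of that list was Klrg1 (-0.74). Lower genes were led by Trbv15 (-1.57) and included S1pr1 (-1.12), which guides exit from tissues, and Klf2 (-0.91), the factor that maintains S1pr1. Ikzf4 differed by 0.605 (SE 0.184, adjusted p = 0.0977). The genes named in both splits were picked after their values were seen. With no library block 0 genes were called and with DESeq2 60. Leaving out PBS, IL15 superagonist, the combination or fusion gave 81, 84, 68 or 307.

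Over 27 sums of cells by class and library, in gates that use no member, the gene whose level followed Foxp3 most closely was Lrrc32 (Pearson r = 0.946 of log2(CPM + 1)), then Itgb8 (0.941), Wisp1 (0.936), Ncmap (0.924) and Angptl2 (0.919), among 13140 genes. For Ikzf2 they were Rif1 (0.948), Icos (0.925), Hacd3 (0.922), Cd27 (0.913) and Xlr4a (0.906). For Ikzf4 they were Ccr8 (0.931), Izumo1r (0.926), Tnfrsf4 (0.919), Cd5 (0.899) and Sdf4 (0.898). For Lrrc32 they were Foxp3, Angptl2 (0.936), Igsf23 (0.892), Wisp1 (0.887) and Itgb8 (0.875). The sums share libraries and differ in depth, so these are descriptions. Foxp3 and Lrrc32 were nearest to each other, while Ikzf2 and Ikzf4 had other neighbours.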

How the data were processed

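Live CD45+ cells were captured with a 10x 5' kit, and the deposited tables hold UMI counts per gene and cell, made by the authors with Cell Ranger 2.1.1 on mm10, per the submitters' processing notes. Gene symbols and cell barcodes came from the deposited lists. The 4 members, lists and gates were chosen with earlier results of these data known. The limits on cells were 200 genes as a minimum and 10% mitochondrial UMIs as a maximum. Doublets were cells of the T, NK or B gates with at least 2 genes and 3 UMIs of another lineage's markers. UMIs were summed per class and library and given as CPM with exact Poisson intervals. Classes with at least 20 cells were tested with edgeR 4.0.16 (TMM, filterByExpr), with DESeq2 1.42.0 as an alternative, and the procedure was tested on simulated data. Whether a library is 1 mouse or a pool is not given, so p-values measure the spread between these libraries. Named genes are the members, up to 4 called genes of largest change per list, and the 5 genes most like each member. Other genes named from counts of 5 or fewer were chosen after their values were seen. Alternatives changed normalization, filter, libraries, block, doublets, depth, mitochondrial limit (5%) and gates. No data were imputed. For precision, 3 counts are taken as the limit that a count of 0 allows.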

Additional observations from a re-analysis of the deposited data

Results flagged for a closer look

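Ikzf2 differed in opposite directions in CD8 T and NK cells for pairs of libraries, each ratio at full depth with an interval that excludes 1. Against the combination, fusion was at 0.650 of the level in CD8 T cells (0.623 to 0.678), in a comparison where 18% of genes were at least 1.5-fold lower, and at 1.78 in NK cells (1.35 to 2.34), where 10.6% of genes were at least 1.5-fold higher. Against IL15 superagonist, fusion was at 0.683 in CD8 T cells (0.647 to 0.722) and at 2.27 in NK cells (1.70 to 3.0). With cells thinned to 2000 UMIs, the ratios against the combination were 0.768 (0.704 to 0.838) in CD8 T cells and 1.76 (1.07 to 2.80) in NK cells. Those against IL15 superagonist were 0.899 (0.806 to 1.01) in CD8 T cells, an interval that includes 1, and 1.86 (1.15 to 2.93) in NK cells. The 2 ratios against IL15 superagonist stayed on opposite sides of 1, but at equal depth only the NK interval excluded 1. With 1 library per treatment the difference between the classes was not tested.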

How the results depend on the processing

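The fits of the class contrasts called the 3 members the gate did not use, and Foxp3 in the Il2ra-Ctla4 gate, in every alternative that gave a value. The comparison of Ikzf2-positive and Ikzf2-zero Treg-gated cells could not be run, because too few cells had no Ikzf2. The count of genes called against CD4 T cells, 940, became 413 with DESeq2, 408 with no library block, 565 with doublets kept and 553 with thinned cells, and 530 (without the combination) to 753 with a library left out. Against CD8 T cells 2152 became 1349 with no block and 1205 thinned, and 1407 (without anti-PD1) to 1904 with a library left out. Against NK cells 2416 became 1426 thinned. In the Il2ra-Ctla4 gate 712 became 433 with DESeq2 and 395 thinned, and 451 (without the combination) to 659 with a library left out. The Lrrc32 split (35) gave 1 with DESeq2, 1 with no block and 5 not thinned, and 0 to 20 with a library left out. The Ikzf4 split (0) gave 19 with no filter and 22 with doublets kept, and 0 to 6 with a library left out. The Ikzf2 split of CD8 T cells (163) gave 60 with DESeq2, 305 with no filter, 0 with no block, 1300 not thinned and 257 with doublets kept, and 68 to 307 with a library left out. In the Lrrc32 split the log2 difference of Ikzf4, -0.0612, turned to 0.211 not thinned, 0.15 with doublets kept and ranged from -0.102 to 0.00303 with a library left out. In the Ikzf4 split that of Ikzf2, 0.162, turned to -0.0714 with no filter and ranged from -0.00636 to 0.264 with a library left out. The cause of these changes was not tested, beyond fewer genes tested after thinning.

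The Treg share of T cells, in the order PBS to fusion, was 5.26%, 5.02%, 0.837%, 1.32% and 0.095% when a Cd4 UMI was also needed. With 2 Foxp3 UMIs it was 4.58%, 4.91%, 1.05% and 1.94% from PBS to the combination. The Il2ra-Ctla4 gate gave 5.26%, 4.58%, 1.08%, 1.41% and 0.095%. The gate with no limit on Cd8 UMIs gave 11.8%, 9.88%, 2.36%, 4.29% and 0.516%. Thinning gave 5.81%, 5.11% and 2.02% in PBS, anti-PD1 and the combination. Relative to PBS, Ikzf2 in Treg-gated cells was 0.632 in anti-PD1 and 0.573 in the combination with doublets kept, 0.84 and 0.55 in the Il2ra-Ctla4 gate, and 0.379 in IL15 superagonist with no limit on Cd8 UMIs. In thinned CD8 T cells Ikzf2 was 0.275 (IL15 superagonist), 0.322 (combination) and 0.247 (fusion) of PBS, and 0.243 for fusion with doublets kept. After thinning, Ikzf2 in CD4 T cells of fusion against the combination turned to 1.06, and Lrrc32 in CD8 T cells of the combination against IL15 superagonist to 1.12. Of 542 ratios between libraries under an alternative, 496 stayed within their counting interval. Depth limits Ikzf4 and Lrrc32 most, with 11 to 147 UMIs per library in Treg-gated cells.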
